A study of Mus musculus with 5 samples.

Results

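The genes described here are 10 antioxidant and metal-binding genes of the mouse: the glutathione peroxidase genes Gpx1, Gpx3 and Gpx4, the superoxide dismutase genes Sod1, Sod2 and Sod3, the metallothionein genes Mt1 and Mt2, the thioredoxin-interacting protein gene Txnip and the catalase gene Cat. They were chosen by name, with earlier results of these data known, and all 10 were found among the 31053 genes listed in each of 5 count matrices. Each matrix is a single-cell library made from untreated C57BL6/J ovaries at 2, 3, 4, 5 or 6 wk of age, an interval that runs from the growth of the first wave of follicles to puberty. Ovaries were dissociated with trypsin, live cells were sorted by exclusion of a dead-cell stain, and the 3′ ends of transcripts were counted with unique molecular identifiers (UMIs). There was 1 library per age, and the number of mice behind a library is not given in the labels.

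The 48163 cells were clustered without these genes, and 40203 cells fell in a group that is described below. Follicle-supporting granulosa-like cells were divided into a primordial group (653 cells), a primary group (2684), a secondary group (1638), an antral group (4116), a mitotic group (5733) and a remodeling group (3346). The remodeling group carries the markers that the study gives to granulosa cells likely to derive from first-wave follicles that went through partial atresia, a process in which the oocyte is lost. The names rest on marker genes and, for a primary and the only secondary cluster, where the markers tied, on the likeness to the study's own cluster means. The naming rule was adopted after levels of Gpx3 and Mt1 by cluster and the members' test results under an earlier rule had been seen. The adjusted p-values between granulosa stages are therefore not independent of that choice. The single primordial cluster was named from markers alone, and a mean of the study's own primordial cluster was not used here; of the means used, that of a primary cluster was the most alike, below the limit set for a match. The other groups used here are stromal-like (13360 cells), smooth muscle-like (4138), theca-like (931), pericyte-like (860), blood endothelial-like (717), hematopoietic-like (496), surface epithelial-like (321), a mixed mesenchymal set whose markers did not separate, lymphatic endothelial-like (209, in 4 libraries) and rete ovarii-like (84, in 2 libraries).

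Superoxide formed by mitochondrial respiration and by oxidases is turned into hydrogen peroxide by superoxide dismutases: SOD1 in the cytosol, SOD2 in the mitochondrial matrix and SOD3 outside the cell. Hydrogen peroxide is then removed by catalase in peroxisomes and by glutathione peroxidases, of which GPX1 is cytosolic, GPX3 is secreted and GPX4 reduces lipid peroxides in membranes and so protects against ferroptosis. Metallothioneins are small cysteine-rich proteins that bind zinc and copper, and TXNIP is an arrestin-like protein that binds and restrains thioredoxin and lowers glucose uptake. Cells that make steroids, such as theca cells and granulosa cells, produce reactive oxygen during mitochondrial side-chain cleavage of cholesterol.

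The levels of Mt1 and Mt2 were correlated over the cell groups described below, so the promoters of these neighboring genes are shown first. The genes did not move together everywhere: from the primordial to the primary group Mt1 was higher and Mt2 lower at 3, 4 and 5 wk. The part of the promoters in the levels was not tested. Mt2 lies at chr8:94172664-94173568 and Mt1 at chr8:94179082-94180327 of GRCm38, both protein-coding and on the plus strand, with 5513 bases between the end of Mt2 and the start of Mt1. The sequences below are RefSeq windows of GRCm38.p6, from 250 bases before to 30 bases after the RefSeq start of transcription, at chr8:94172368-94172647 for Mt2 and chr8:94178839-94179118 for Mt1, both on the plus strand. The Mt2 window ends before the annotated Ensembl start of the gene, and the Mt1 window runs into the first bases of the annotated gene. Capitals mark matches, on either strand, to the metal response element letters TGCACNC or TGCGCNC, which are bound by the zinc-sensing factor MTF1.
Mt2: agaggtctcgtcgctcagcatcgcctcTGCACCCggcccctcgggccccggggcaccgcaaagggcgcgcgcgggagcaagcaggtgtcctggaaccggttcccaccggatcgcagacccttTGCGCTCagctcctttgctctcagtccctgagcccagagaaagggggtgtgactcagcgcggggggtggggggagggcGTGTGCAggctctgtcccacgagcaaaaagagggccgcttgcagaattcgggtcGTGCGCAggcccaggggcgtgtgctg
Mt1: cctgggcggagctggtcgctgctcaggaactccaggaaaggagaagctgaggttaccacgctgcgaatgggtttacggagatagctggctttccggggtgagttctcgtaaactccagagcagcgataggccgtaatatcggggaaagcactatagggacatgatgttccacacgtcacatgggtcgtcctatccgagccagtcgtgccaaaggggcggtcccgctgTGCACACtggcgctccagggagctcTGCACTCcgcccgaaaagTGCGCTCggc

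The Mt2 window held 4 such matches and the Mt1 window held 3. Most of those in Mt1, the last of them 20 bases on, lay after the RefSeq start of transcription. In Mt2, 1 match lay after that start. Of 32851 RefSeq promoter windows of the same length, 24.1% held at least 1 match and 1.73% held 3 or more, with 11.7% holding TGCACNC and 14.4% holding TGCGCNC. Of the 9 members with a window, the other member with a match was Txnip, with 1. The antioxidant response element letters TGACNNNGC, found in 11.5% of windows, occurred once in Mt2 and once in Sod1. In Mt2 they did not overlap another match. The TATA-box letters TATAAA, found in 13.1%, occurred once in the Sod1 window and not in those of Mt1 and Mt2. Sequence outside the windows was not tested for any of these letters. Mt1 has 3 annotated transcripts and Mt2 has 2, and for each gene the window was set at a single RefSeq start. Positions are relative to that start only. A TATA box or further matches beside another start of either gene would have been missed.

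The libraries held 7779 to 11077 cells and 93438618 to 144609431 UMIs, with a median of 9056 to 12424 UMIs per cell. In each library, levels are given in CPM, which scales a gene's summed UMIs to the same total in every group of cells. The broad classes, such as granulosa-like and theca-like cells, carried their defining markers in every library that had them. Some also carried markers of another class. Rete ovarii markers summed to 490 to 1444 CPM in surface epithelial-like cells, against 1246 to 1360 CPM in rete ovarii-like cells. Smooth muscle markers summed to 5373 to 12059 CPM in pericyte-like cells, against 18137 to 22559 CPM in smooth muscle-like cells. The part of this in the levels was not tested. Marker levels per library are not given here for the granulosa stages or the mixed mesenchymal set. Cyp17a1, the androgen-synthesis enzyme of theca cells, was at 171 to 3436 CPM in theca-like cells, and the collagen-binding proteoglycan gene Dcn was at 1294 to 2974 CPM in stromal-like cells. Inha, which encodes the inhibin alpha subunit, was at 3119.8 to 5443 CPM in granulosa-like cells. The matrices of 2, 3 and 4 wk name Cell Ranger 3.1.0 and those of 5 and 6 wk name 6.0.1, so age and that software version cannot be told apart between these sets. A cluster of 461 granulosa-like cells, led by Col1a2, Col1a1 and Dcn and with 53.4% called doublets, was left unnamed. So was a cluster of 7 cells led by Ooep and Zp3. Both are in no stage group but stay in the sums of all granulosa-like cells.

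Across the 16 groups of cells, each member had its own order of levels. Gpx3, the secreted peroxidase gene at chr11:54902453-54910377, had its highest medians over the libraries in the remodeling group (452 CPM), the primordial group (325 CPM) and stromal-like cells (141 CPM), and its lowest in the primary group (17.4 CPM). Neighbors in that order overlapped in range throughout. Gpx1, at chr9:108338903-108340343, was highest in hematopoietic-like cells, at 486 to 792 CPM, and lowest by median in the primordial group, at 134 to 185 CPM, with every neighbor in the order overlapping. Gpx4, at chr10:80047166-80056439, varied least by the ratio of its highest to its lowest median: they ran from 344 CPM in lymphatic endothelial-like cells to 739 CPM in rete ovarii-like cells. The mitotic group (579.6 to 779 CPM) did not overlap the group next below it by median, theca-like cells (469 to 518 CPM). It did overlap groups further down, such as the antral group (617 CPM at 3 wk) and the primordial group (583 CPM at 3 wk).

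The 3 superoxide dismutase genes differed in where they were highest. Sod3, the gene of the extracellular enzyme at chr5:52363791-52371418, was highest in pericyte-like cells, at 93.3, 112, 139.9, 203 and 231 CPM at 2, 3, 4, 5 and 6 wk, which did not overlap the next group, smooth muscle-like cells at 17.6 to 57.9 CPM. A Cxcl12-led subgroup of the mesenchymal cells, described below, overlapped the pericyte-like levels. In the granulosa groups Sod3 had medians of 2.14 to 14.2 CPM. Sod1 (chr16:90220754-90226329) and Sod2 (chr17:13006846-13040063) were found throughout, Sod1 with its highest median in theca-like cells at 151 to 318 CPM, and Sod2 in the 2 rete ovarii-like sums at 244 to 246 CPM, followed by the secondary group at 105 to 158 CPM. Sod1 neighbors overlapped throughout.

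Mt1 and Mt2 were highest in surface epithelial-like cells in each library, and for Mt2 no other group reached those levels in any library. Mt1 was at 3367, 2139, 6277, 6257 and 4449.8 CPM at 2, 3, 4, 5 and 6 wk there, the next group by median, pericyte-like cells, was at 780.2 to 2112 CPM, and theca-like cells at 5 wk (2268 CPM) were above surface epithelial-like cells at 3 wk. Txnip, at chr3:96557957-96561883, had its highest median in the primordial group (617 CPM), although single libraries reached 1269.8 CPM in surface epithelial-like cells and 1119 CPM in the remodeling group at 6 wk. Cat, at chr2:103453849-103485160 on the minus strand, was highest in the rete ovarii-like sums (66.1 to 68.8 CPM) and otherwise kept to medians of 26.1 to 47.6 CPM. The map of median levels shows these orders, to be read down each gene's column.

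**Figure D1:**
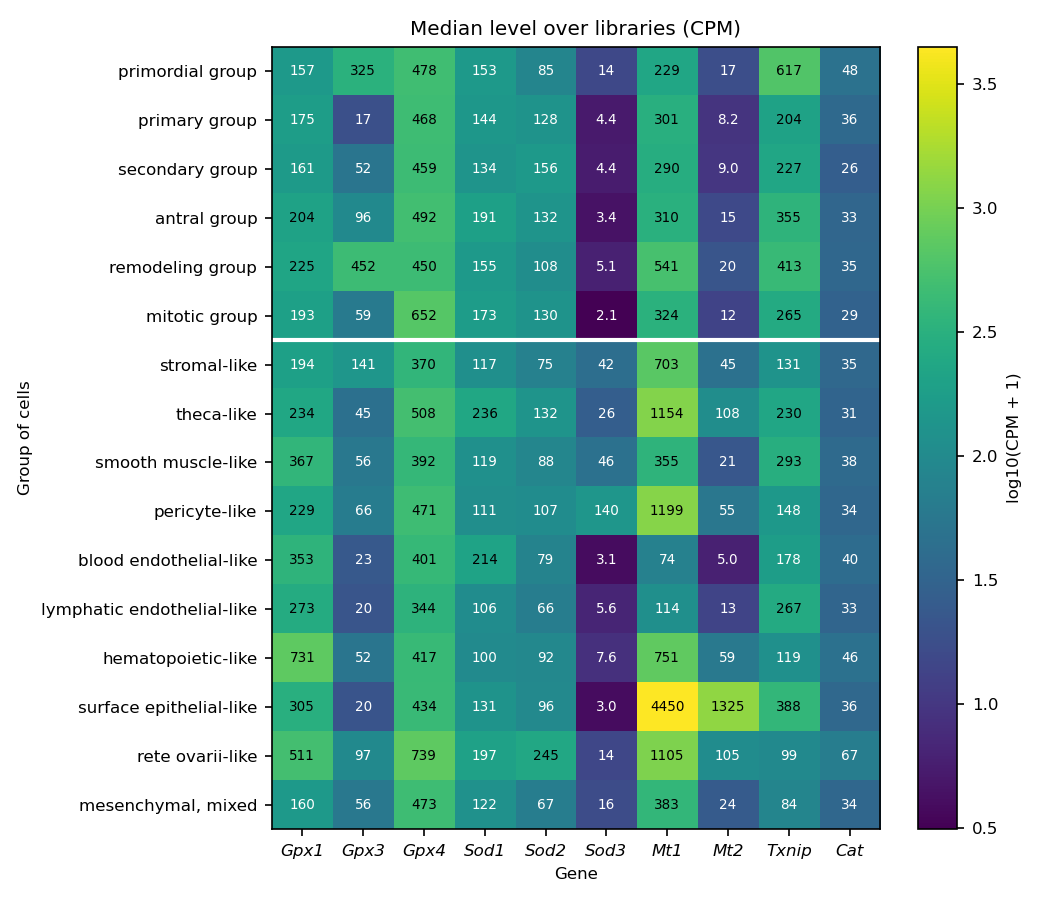
Median level of each of the 10 genes (columns) in each group of cells (rows), over the libraries in which the group was summed, printed in CPM and colored by log10(CPM + 1); a white line divides the granulosa groups from the other classes. Surface epithelial-like cells stand out for Mt1 and Mt2, pericyte-like cells for Sod3, and the remodeling and primordial groups for Gpx3.

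The first comparison asked how the genes differ between primordial follicles, which rest, and primary follicles, which have begun to grow. Gpx3, Sod3, Txnip and Cat fell and Sod2 and Mt1 rose, which makes 6 of 10 members called beside 33.1% of all 12798 genes tested. UMIs were summed per library and group and tested with edgeR's quasi-likelihood test with the library as a block, with Benjamini-Hochberg adjustment over all genes and a call at 0.05. All 10 members passed the filter on low counts in this and every later comparison.

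Gpx3 was at 61.0, 419.8, 567, 325 and 319 CPM in the primordial group and at 7.48, 14.4, 41.5, 31.5 and 17.4 CPM in the primary group at 2, 3, 4, 5 and 6 wk, a log2 fold of -3.88 ± 0.26 (SE, adjusted p = 1.25e-11). The primordial libraries were all above the primary ones, with no overlap, and 2 wk was the lowest of both groups. With each cell thinned to 2000 UMIs, Gpx3 was seen in 9.85 to 59.3% (median 41.1%) of thinned cells and 36.0 to 77.8% of cells at full depth of the primordial group, where the median depth per library was 6326 to 12045 UMIs. In the primary group it was seen in 0.96 to 6.78% (median 4.90%) of thinned cells and 10.0 to 25.2% of cells at full depth (median depth 8698 to 16614 UMIs). Surface epithelial-like cells, taken as a class low in this gene, had it in 1.96 to 9.09% (median 2.83%) of thinned cells and 4.62 to 13.7% of cells at full depth (median depth 6024 to 12875 UMIs). The thinned ranges overlapped, while the full-depth share reached higher in the primary group, which was also deeper. That class was above the primary group in CPM at 2 and 3 wk and by its median over the libraries, so it is no clean floor. Whether the primary share lies above background was not tested.

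Txnip was at 617, 471, 406, 822 and 641 CPM in the primordial group and at 122, 125, 204, 392 and 312 CPM in the primary group, a log2 fold of -1.53 ± 0.22 (SE, adjusted p = 6.08e-06). In each library the primordial value was the higher one. Sod3 was at 8.97 to 21.6 CPM in the primordial group and 3.23 to 9.68 CPM in the primary group, a log2 fold of -1.32 ± 0.33 (SE, adjusted p = 0.00284). Its ranges overlapped slightly, but the primordial value was the higher one in each library. Sod2 was at 82.2 to 116 CPM and 92.4 to 139 CPM, a log2 fold of 0.39 ± 0.10 (SE, adjusted p = 0.00291), and was higher in the primary group in all 5 libraries. The primordial group held few cells at the later ages, 275, 185, 89, 56 and 48 at 2, 3, 4, 5 and 6 wk.

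Cat (log2 fold -0.43 ± 0.13 SE, adjusted p = 0.0096) and Mt1 (log2 fold 0.54 ± 0.19 SE, adjusted p = 0.0303) were called with smaller differences. Cat was lower in the primary group in 4 of 5 libraries, and its difference was -0.36 (adjusted p = 0.102) without the 3 wk library and -0.38 (adjusted p = 0.0519) without the 5 wk library. Mt1 was higher in 4 of 5 libraries, with a difference of 0.32 (adjusted p = 0.214) without the 2 wk library, 0.49 (adjusted p = 0.109) without the 3 wk library, 0.54 (adjusted p = 0.0709) without the 5 wk library and -0.01 (adjusted p = 0.989) when the members were let into the clustering. Mt2 had a log2 fold of -0.54 and was not called, and Gpx1 (0.15), Gpx4 (0.00) and Sod1 (0.12) were not called either. With the stages named by the highest marker score alone, Gpx3 had -1.14 (adjusted p = 0.026), Txnip -0.55 (adjusted p = 0.14) and Sod3 -0.39 (adjusted p = 0.488). In a fit without the library as a block 1 member was called, Gpx3, beside 2120 of 12798 genes. Genes induced by cell dissociation moved with this comparison: 10 of 12 listed genes were lower in the primary group, and their sum was 3780.5 to 8138 CPM against 8655 to 15247 CPM, and their part in the differences was not tested. The 5 stromal markers summed to 53.3 to 139 CPM in the primordial group against 21.3 to 38.2 CPM in the primary group, which did not overlap, and 1 of them was called lower and 1 higher in the primary group. Stromal-like cells had Sod3 at 31.4 to 58.3 CPM, and the part of stromal RNA in the differences was not tested.

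**Figure D2:**
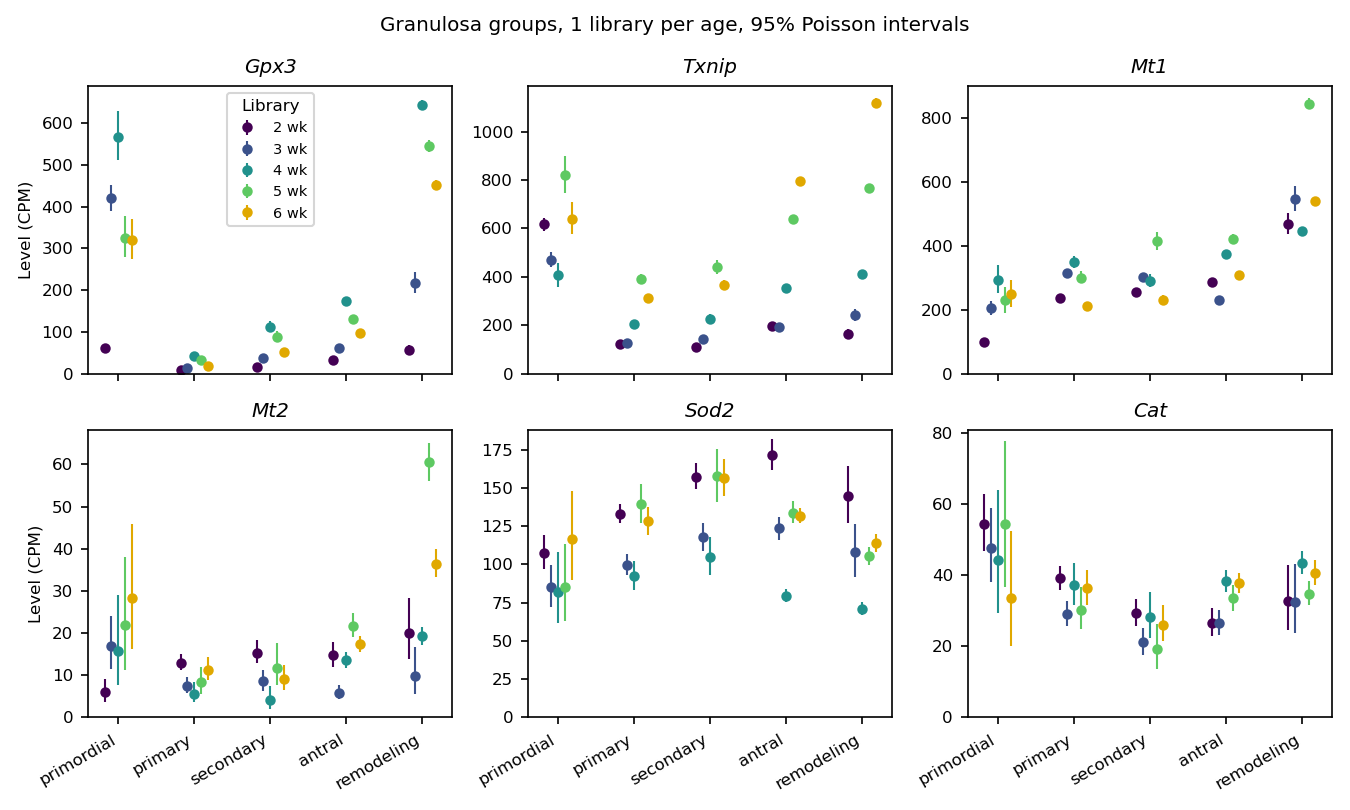
Level of Gpx3, Txnip, Mt1, Mt2, Sod2 and Cat in CPM (linear axes from 0, a panel for each gene) in the primordial, primary, secondary, antral and remodeling groups, with a point for each library colored by age and bars for exact 95% Poisson intervals. Gpx3 is at 61.0 to 567 CPM in the primordial group, drops in the primary group, climbs through the secondary and antral groups and is highest at 644 CPM in the remodeling group.

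Between the primary and secondary groups, 3 of 10 members were called beside 10.9% of all genes. Gpx3 rose to 16.5, 37.8, 112, 87.9 and 52.5 CPM at 2, 3, 4, 5 and 6 wk, a log2 fold of 1.5 ± 0.25 (SE, adjusted p = 3.74e-04), and was higher in the secondary group in every library. Sod2 rose (log2 fold 0.33 ± 0.09 SE, adjusted p = 0.0151) and Cat fell (log2 fold -0.36 ± 0.11 SE, adjusted p = 0.0369), each in the same direction in all 5 libraries. Their adjusted p-values lay near the threshold: Sod2 had 0.33 (adjusted p = 0.062) without the 3 wk library, 0.33 (adjusted p = 0.0554) without the 4 wk library, 0.32 (adjusted p = 0.0508) without the 5 wk library and 0.31 (adjusted p = 0.0825) without the 6 wk library. Cat had -0.36 (adjusted p = 0.136) without the 3 wk library, -0.38 (adjusted p = 0.0835) without the 4 wk library, -0.35 (adjusted p = 0.131) without the 5 wk library and -0.36 (adjusted p = 0.112) without the 6 wk library. The other 7 members had log2 folds between -0.12 (Sod3) and 0.23 (Txnip) and were not called. Without the block, 0 members were called, beside 62 of 12798 genes. With cells clustered at a resolution of 0.6 Cat had -0.11 (adjusted p = 0.424), and 7 members were called beside 6423 of 13214 genes. The secondary group is a single cluster whose name rests on the study's cluster means. Its leading genes included Igfbp5, Wnt4, Kctd14 and Fndc5, which are on the primary marker list, and no gene of the secondary list. There was no secondary group with the default variable genes, tied clusters left out or stages named by the highest marker score. Those alternatives therefore gave no value for this comparison or for the next.

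From the secondary to the antral group, 6 of 10 members rose and none was called lower, beside 30% of all genes called in either direction. They were Gpx3 (log2 fold 0.77 ± 0.23 SE, adjusted p = 0.0124), Txnip (log2 fold 0.72 ± 0.21 SE, adjusted p = 0.0113), Gpx1 (log2 fold 0.39 ± 0.13 SE, adjusted p = 0.0208), Cat (log2 fold 0.39 ± 0.11 SE, adjusted p = 0.00908), Sod1 (log2 fold 0.35 ± 0.07 SE, adjusted p = 3.26e-04) and Gpx4 (log2 fold 0.23 ± 0.08 SE, adjusted p = 0.0326). Gpx3 reached 33.4, 60.9, 173, 131 and 96.4 CPM, Txnip 197, 193, 355, 638 and 794 CPM and Sod1 159.7, 206, 209.8, 169.6 and 191 CPM at 2, 3, 4, 5 and 6 wk. These 3 genes were higher in the antral group in each library, whereas Gpx1 and Cat were lower at 2 wk. The antral group holds clusters that express the aromatase gene Cyp19a1 and the activin subunit gene Inhba, as well as Vpreb3-rich cells.

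The calls of Gpx1, Gpx4 and Cat depended on single libraries. Gpx1 had 0.28 (adjusted p = 0.148) without the 4 wk library, 0.34 (adjusted p = 0.101) without the 5 wk library and 0.41 (adjusted p = 0.0612) without the 6 wk library. Gpx4 had 0.21 (adjusted p = 0.0909) without the 3 wk library, 0.26 (adjusted p = 0.0606) without the 4 wk library, 0.23 (adjusted p = 0.0905) without the 5 wk library and 0.24 (adjusted p = 0.0838) without the 6 wk library, and Cat had 0.33 (adjusted p = 0.0669) without the 5 wk library. Leaving out the 5 wk library thereby reduced the count from 6 to 3, beside 2745 of 12773 genes called. With cells clustered at a resolution of 0.6 the Gpx4 difference turned to -0.37 (adjusted p = 0.00325) and the Gpx1 difference to -0.08 (adjusted p = 0.684), with Sod1 at 0.14 (adjusted p = 0.0997) and Cat at 0.09 (adjusted p = 0.543). Without the block 0 members were called, beside 1425 of 12798 genes. Of 4 theca markers tested, 3 were higher in the antral group, at sums of 37.8 to 279 CPM against 6.56 to 17.7 CPM without overlap, and of 3 surface epithelial markers tested 3 were lower, at sums of 68.9 to 91.8 CPM against 113 to 141 CPM. Of the dissociation genes, 5 of 12 were higher in the antral group, at sums of 6557 to 9701 against 3702 to 9439 CPM, and their part was not tested.

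The remodeling group was compared with the antral group, the other end of granulosa cell development. Gpx3, Mt1 and Mt2 rose and Gpx4, Sod1 and Sod2 fell, 6 of 10 members beside 34.7% of all genes. Gpx3 was at 55.3, 217, 644, 545 and 452 CPM in the remodeling group at 2, 3, 4, 5 and 6 wk, a log2 fold of 1.77 ± 0.22 (SE, adjusted p = 8.88e-07) over the antral group, and was the higher one in every library. At 4 wk it was at 644 CPM (95% Poisson interval 632 to 656) against 173 CPM (95% Poisson interval 167 to 179.9); all intervals of this kind cover counting error only.

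Mt1 was at 469, 548, 448, 845 and 541 CPM in the remodeling group against 288, 229.9, 376, 423 and 310.1 CPM in the antral group (log2 fold 0.74 ± 0.18 SE, adjusted p = 0.00198). Mt2 was at 20.1, 9.87, 19.3, 60.5 and 36.4 CPM against 14.7, 5.83, 13.5, 21.7 and 17.3 CPM (log2 fold 0.94 ± 0.27 SE, adjusted p = 0.00722), with 0.73 (adjusted p = 0.0911) without the 5 wk library. Both metallothionein genes were higher in the remodeling group in all 5 libraries, and the difference in Mt1 was smallest at 4 wk. The rise in Mt1 did not hold in each cluster of the group, as given below. Sod2 (log2 fold -0.31 ± 0.09 SE, adjusted p = 0.00568), Sod1 (log2 fold -0.30 ± 0.07 SE, adjusted p = 0.00101) and Gpx4 (log2 fold -0.25 ± 0.08 SE, adjusted p = 0.0217) were lower in all 5 libraries, Gpx4 with -0.16 (adjusted p = 0.176) without the 3 wk library and -0.25 (adjusted p = 0.06) without the 6 wk library, and with -0.15 (adjusted p = 0.208) at a resolution of 0.6. With the stages named by the highest marker score alone, Sod2 had -0.17 (adjusted p = 0.0753) and Gpx3 2.89 (adjusted p = 2.36e-07). Txnip (0.20), Sod3 (0.38), Cat (0.14) and Gpx1 (0.03) were not called. Without the block 1 member was called, Gpx3, beside 1799 of 12798 genes.

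Markers of other cells were measured beside this comparison. The 5 stromal markers summed to 30.1 to 97.9 CPM in the remodeling group and 10.4 to 22.2 CPM in the antral group, with 3 of 5 higher in the remodeling group, while stromal-like cells themselves had 2790.3 to 4282 CPM. Stromal-like cells had Gpx3 at 121 to 175 CPM, below the remodeling group from 3 to 6 wk. A Col14a1-led mesenchymal subgroup, described below, was above the remodeling group in Gpx3 at each age. Of the 4 theca markers tested, 4 were lower in the remodeling group, at sums of 14.1 to 172 CPM against 37.8 to 279 CPM. The smooth muscle markers summed to 71.1 to 477 CPM against 35.6 to 78.1 CPM, with 2 of 5 higher in the remodeling group. For the surface epithelial markers, which mark the cells highest in Mt1 and Mt2, 2 of 3 tested were higher, at sums of 99.3 to 194 CPM against 68.9 to 91.8 CPM. Of the granulosa markers 5 of 6 were lower and 1 was higher, at sums of 2670.4 to 4467 CPM against 8529 to 11704 CPM. The hematopoietic markers summed to 0 to 2.80 CPM. Of the dissociation genes, 4 of 12 were higher, at sums of 6903 to 11739 CPM, and the part of these lists in the differences was not tested.

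The remodeling group was made of 3 clusters, which took different shares of each age. The cluster led by Angpt2, H19 and Gpx3 held 134, 119, 199, 170 and 148 cells at 2, 3, 4, 5 and 6 wk. It made up most of the 146 and 166 cells of the group at 2 and 3 wk. The cluster led by Cald1, Ghr and Adamts5 held 30, 771, 309 and 354 cells at 3, 4, 5 and 6 wk, and the cluster led by S100a6, Nupr1 and Agt held 438, 309 and 336 cells at 4, 5 and 6 wk.

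In the Angpt2-led cluster Gpx3 was at 43.0, 197, 1226, 846 and 965 CPM, so it differed between ages within that cluster as well as over the group. It was at 242, 403, 455 and 382 CPM from 3 to 6 wk in the Cald1-led cluster and at 829.9, 522 and 368 CPM from 4 to 6 wk in the S100a6-led cluster. The Angpt2-led cluster was the highest of the 3 at 4, 5 and 6 wk.

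Mt1 separated the clusters in another way. It was at 476, 534, 837, 1331 and 717 CPM in the Angpt2-led cluster, at 556, 1015 and 720.1 CPM in the S100a6-led cluster, and at 703, 298, 455 and 311 CPM in the Cald1-led cluster, which was the lowest at 4, 5 and 6 wk. The antral group was at 229.9, 376, 423 and 310.1 CPM of Mt1 at 3, 4, 5 and 6 wk. The Cald1-led cluster was above it at 3 wk, below it at 4 wk and close to it at 5 and 6 wk. Txnip was at 357, 410.0, 852 and 1174 CPM from 3 to 6 wk in the Cald1-led cluster and at 145, 224, 356, 648 and 893 CPM from 2 to 6 wk in the Angpt2-led cluster, which was the lower of these 2 at each shared age. With 1 library per age these cluster values are a description.

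**Figure D3:**
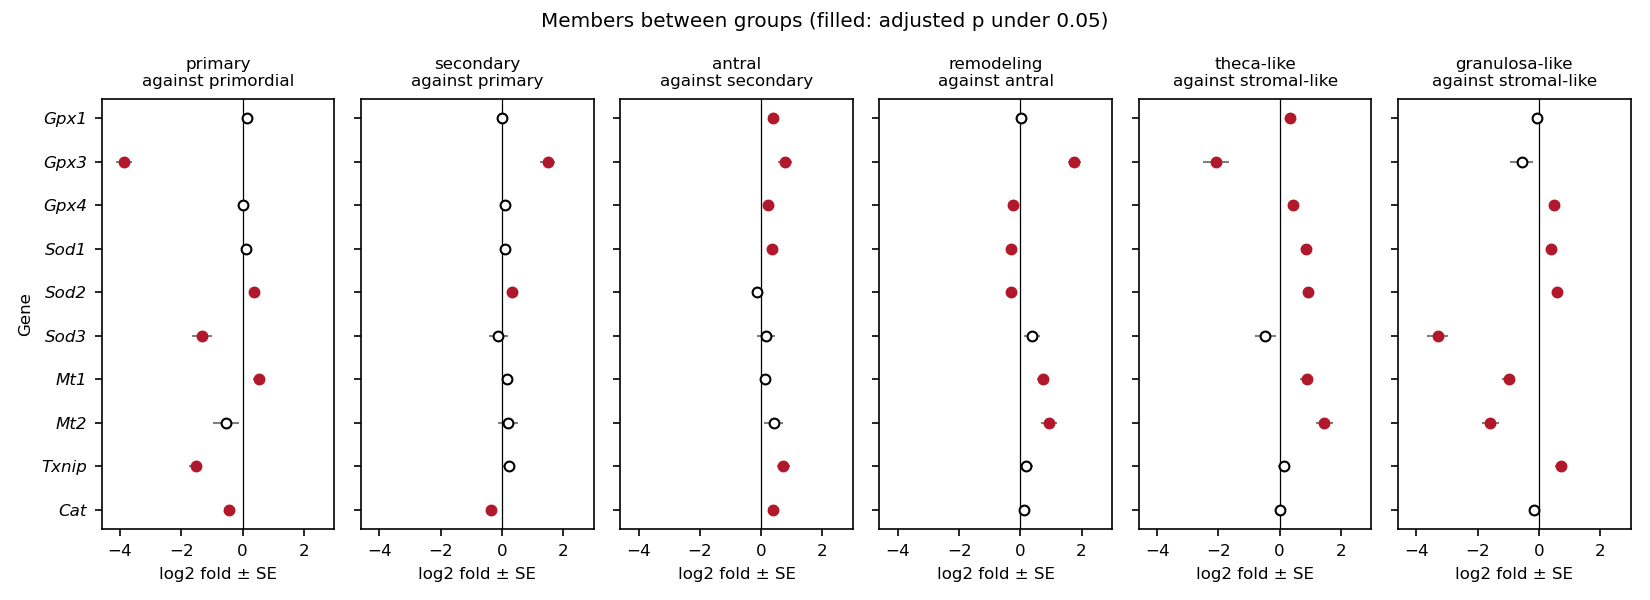
Log2 fold of each gene in the 6 comparisons between groups of cells (horizontal axis), with bars of 1 standard error; filled points were called at an adjusted p of 0.05 by edgeR and open points were not. Gpx3 reaches −3.88 between primary and primordial groups and 1.77 between remodeling and antral groups, and Sod3 reaches −3.30 between granulosa-like and stromal-like cells.

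Theca-like cells, the steroidogenic cells around follicles, were compared with stromal-like cells. Gpx1, Gpx4, Sod1, Sod2, Mt1 and Mt2 rose and Gpx3 fell, 7 of 10 members beside 51.3% of all 14184 genes tested. Sod1 was at 151, 252, 236, 318 and 169 CPM in theca-like cells at 2, 3, 4, 5 and 6 wk and at 107, 145, 127, 117 and 101 CPM in stromal-like cells (log2 fold 0.87 ± 0.13 SE, adjusted p = 3.39e-05). Every theca-like value was above every stromal-like one. Sod2 was at 132, 109.5, 100.1, 215 and 142 CPM against 74.9, 63.2, 57.4, 83.6 and 79.8 CPM (log2 fold 0.92 ± 0.11 SE, adjusted p = 4.83e-06), again without overlap.

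Mt2 had the largest rise (log2 fold 1.46 ± 0.28 SE, adjusted p = 3.35e-04), from 60.3, 26.7, 45.4, 99.1 and 22.3 CPM to 84.3, 74.5, 136, 306 and 108 CPM at 2, 3, 4, 5 and 6 wk. The ranges overlapped, and theca-like cells were the higher ones at each age. Mt1 (log2 fold 0.88 ± 0.22 SE, adjusted p = 0.00325) was higher at 3, 4, 5 and 6 wk but not at 2 wk. Gpx4 differed by a log2 fold of 0.43 ± 0.08 (SE, adjusted p = 2.03e-04) and Gpx1 by a log2 fold of 0.33 ± 0.11 (SE, adjusted p = 0.0231), the latter with 0.27 (adjusted p = 0.0787) without the 4 wk library and 0.25 (adjusted p = 0.145) without the 5 wk library. Gpx3 was at 33.7, 17.0, 44.8, 45.2 and 50.1 CPM in theca-like and 121, 132, 175, 141 and 147 CPM in stromal-like cells (log2 fold -2.07 ± 0.42 SE, adjusted p = 5.78e-04), which did not overlap. Sod3 (-0.47), Txnip (0.15) and Cat (0.02) were not called. Of the dissociation genes 9 of 12 were lower in theca-like cells. Of 6 glucocorticoid-response genes 5 were lower and 1 was higher, and the part of both lists was not tested. Without the block 5 members were called, beside 5538 of 14184 genes.

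All granulosa-like cells as 1 group differed from stromal-like cells in 7 of 10 members, near the 69.7% of all genes called. Sod3 fell most, from 37.6, 31.4, 58.3, 42.5 and 52.6 CPM in stromal-like cells to 10.4, 3.48, 3.28, 3.76 and 4.12 CPM in granulosa-like cells at 2, 3, 4, 5 and 6 wk (log2 fold -3.30 ± 0.34 SE, adjusted p = 2.52e-07). Mt2 (log2 fold -1.58 ± 0.27 SE, adjusted p = 7.10e-05) and Mt1 (log2 fold -0.99 ± 0.22 SE, adjusted p = 8.60e-04) were lower, whereas Txnip (log2 fold 0.72 ± 0.18 SE, adjusted p = 0.00187), Sod2 (log2 fold 0.59 ± 0.11 SE, adjusted p = 1.35e-04), Gpx4 (log2 fold 0.49 ± 0.08 SE, adjusted p = 3.14e-05) and Sod1 (log2 fold 0.39 ± 0.13 SE, adjusted p = 0.0116) were higher. Sod1 had 0.33 (adjusted p = 0.0636) without the 4 wk library and 0.34 (adjusted p = 0.0545) without the 6 wk library. Gpx3 (-0.57), Cat (-0.17) and Gpx1 (-0.06) were not called. All 12 dissociation genes were lower in granulosa-like cells, at sums of 4959.9 to 8770.5 against 13122 to 20190.4 CPM, and their part was not tested. The granulosa-like sums include the unnamed doublet-rich cluster. In them the 5 stromal markers summed to 40.8 to 71.7 CPM, against 10.4 to 22.2 CPM in the antral group and 10.5 to 26.4 CPM in the mitotic group. The primordial and remodeling groups reached 139 and 97.9 CPM. With called doublets left out 7 members were again called, and the part of that cluster was not tested. Without the block 5 members were called, beside 7918 of 14184 genes.

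Re-clustering of the mesenchymal cells separated subgroups that differed in these genes. Gpx3 was at 444, 675, 753, 768 and 590.4 CPM at 2, 3, 4, 5 and 6 wk in a subgroup led by Col14a1, which encodes a collagen of connective tissue sheaths. Every one of those values was above the highest value of the other mesenchymal subgroups, 316 CPM in a Hoxd9-led subgroup at 6 wk. By median Gpx3 was lowest in the subgroup with late theca markers, at 20.1 to 42.5 CPM, and was at 68.1 to 124 CPM in the subgroup with early theca markers.

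Sod3 had its highest mesenchymal level in a subgroup led by Cxcl12, the chemokine gene of perivascular stroma, at 92.3, 94.0, 129.9, 89.5 and 113 CPM, and its lowest medians in the dividing subgroup (14.6 CPM) and the Hoxd9-led subgroup (19.3 CPM). Mt1 was also high in the Cxcl12-led subgroup, at 1441, 645, 1769, 2146 and 716 CPM, and in the late theca subgroup, at 671, 1269, 1771, 2318 and 851 CPM. Gpx1 was highest in the Tagln-led contractile subgroup, at 435, 457, 364, 334 and 294 CPM, above all other mesenchymal subgroups at each age.

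Mt1 and Mt2 were compared with each other as a ratio within the same cells, since both are read from the same library. Over the 76 sums of a group and a library, log2 levels of Mt1 and Mt2 had a Pearson correlation of 0.89, given as a description because sums of 1 library share their depth and handling. No other pair of members exceeded 0.46 (Gpx1 and Cat). In surface epithelial-like cells, which cover the ovary, Mt2 was at 884, 453, 1325, 1583 and 1505 CPM at 2, 3, 4, 5 and 6 wk.

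Per 100 UMIs of Mt1 there were 26.3, 21.2, 21.1, 25.3 and 33.8 UMIs of Mt2 in surface epithelial-like cells at 2, 3, 4, 5 and 6 wk. The same ratio was 13.2, 6.46, 8.46, 13.5 and 14.6 in theca-like cells and 8.58, 6.30, 5.95, 8.31 and 6.97 in stromal-like cells. In the primary group it was 1.58 to 5.5 and in the remodeling group 1.80 to 7.16. Within each library the ratio in surface epithelial-like cells lay above that in theca-like and stromal-like cells. Mt2 was seen in 52.3 to 82.4% (median 75.6%) of thinned cells and 70.8 to 94.1% of cells at full depth in surface epithelial-like cells, against 0 to 1.57% (median 0.78%) of thinned cells and 0 to 6.02% of cells at full depth in blood endothelial-like cells, which are low in the gene (median depth 2217 to 15358 UMIs).

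**Figure D4:**
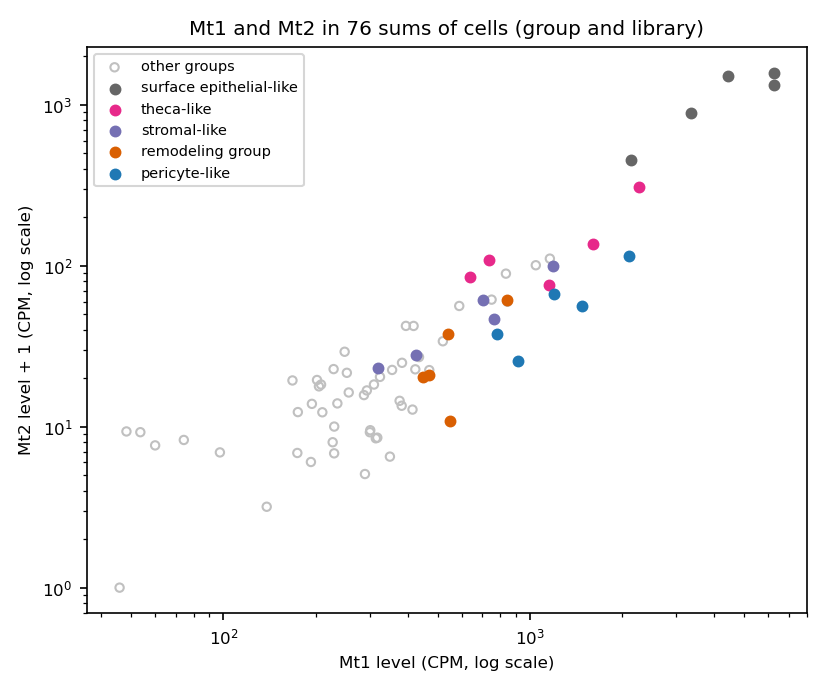
Mt2 level (CPM + 1) against Mt1 level (CPM), both on log axes, with a point for each of 76 sums of a group of cells in a library; 5 groups are colored and the others are open gray points. Surface epithelial-like cells lie at the upper right, above all other points in Mt2 but not in Mt1, at 2139 to 6277 CPM of Mt1 and 453 to 1583 CPM of Mt2.

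Levels between ages were then described within the same groups of cells. With 1 library per age there is no test: each value is a CPM, and the ratio of the highest to the lowest age has an exact interval that covers counting error only. Because fewer cells of a subtype and less RNA per cell cannot be told apart in a sum, the numbers of cells are given where they bear on a value. Members with at least 200 UMIs over the 5 libraries were counted as past the limit at a ratio of 2.

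In the secondary group 3 of 9 counted members were past 2-fold, beside 17.4% of 8276 genes. They were Gpx3, which was 6.75 times (exact 95% interval 5.5 to 8.33) as high at 4 wk as at 2 wk, Txnip and Mt2. Sod3 had under 200 UMIs. In the antral group 5 of 10 were past 2-fold beside 26.4% of genes, namely Gpx3 (5.19 times, exact 95% interval 4.52 to 5.98, between 4 and 2 wk), Txnip, Mt2, Sod2 and Sod3. Without the 2 wk library the count in the antral group was 3 of 9, beside 17.5% of genes. In the remodeling group 5 of 10, which were Gpx3, Txnip, Mt2, Sod2 and Sod3, were past 2-fold beside 32.8% of genes. The count was 3 of 9 without the 2 wk library, beside 21.9% of genes, and 3 of 9 without the 4 wk library, beside 25.4%.

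Gpx3 in the remodeling group was 11.6 times (exact 95% interval 9.47 to 14.5) as high at 4 wk as at 2 wk. In all 4 growing or remodeling groups (primary, secondary, antral and remodeling) it was lowest at 2 wk and highest at 4 wk. The primordial group had the same order at its ends, with 61.0 CPM (95% Poisson interval 53.0 to 70.0) at 2 wk and 567 CPM (95% Poisson interval 510.2 to 629) at 4 wk. In stromal-like cells the difference between ages was smaller, 1.45 times (exact 95% interval 1.39 to 1.51). In surface epithelial-like cells, which are low in the gene, Gpx3 was at 21.1, 101, 19.7, 19.0 and 11.4 CPM at 2, 3, 4, 5 and 6 wk, and in blood endothelial-like cells at 22.9, 12.2, 97.4, 19.7 and 26.2 CPM. In the same libraries the antral group was at 60.9 CPM at 3 wk and 173 CPM at 4 wk, and the part of free RNA in the age differences was not tested.

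Txnip was past 2-fold in all 5 groups of cells that were counted. It was at 102, 84.6, 131, 216 and 566 CPM at 2, 3, 4, 5 and 6 wk in stromal-like cells, where 6 wk was 6.69 times (exact 95% interval 6.40 to 6.98) as high as 3 wk. In the remodeling group it was at 162, 240.5, 413, 767 and 1119 CPM, highest at 6 wk and lowest at 2 wk (6.89 times, exact 95% interval 6.11 to 7.81). The antral group was at 197, 193, 355, 638 and 794 CPM, with 6 wk again the highest. In the secondary group the highest value was at 5 wk instead, 3.96 times (exact 95% interval 3.60 to 4.34) that at 2 wk. In theca-like cells it was at 113, 112, 230.0, 279 and 323 CPM.

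In theca-like cells 7 of 10 members were past 2-fold beside 35.5% of genes, and in 5 of them (Sod1, Sod2, Sod3, Mt1 and Mt2) the 5 wk library was the highest. Mt1 was at 640.1, 1154, 1605, 2268 and 739 CPM at 2, 3, 4, 5 and 6 wk (3.54 times, exact 95% interval 3.30 to 3.81, between 5 and 2 wk). Sod1 differed by 2.10 times (exact 95% interval 1.81 to 2.46) and Sod2 by 2.15 times (exact 95% interval 1.88 to 2.47). Without the 5 wk library 3 of 9 members were past 2-fold, beside 19.9% of genes. Theca-like cells numbered 63, 129, 192, 491 and 56 at 2, 3, 4, 5 and 6 wk, and Cyp17a1 ranged over 171 to 3436 CPM between these libraries.

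In stromal-like cells 3 of 10 members were past 2-fold, Mt1, Mt2 and Txnip, beside 22.1% of genes. Mt1 was at 703, 424, 764, 1193 and 319 CPM and Mt2 at 60.3, 26.7, 45.4, 99.1 and 22.3 CPM at 2, 3, 4, 5 and 6 wk. Both were highest at 5 wk and lowest at 6 wk, Mt1 by 3.74 times (exact 95% interval 3.66 to 3.82). A list of 6 glucocorticoid-response genes, hormones of a kind known to induce metallothionein genes, summed to 785, 562, 705, 1186 and 615 CPM in the same sums, also highest at 5 wk. The dissociation genes summed to 13122, 17653, 18036, 20190.4 and 14437 CPM, likewise highest at 5 wk. In theca-like cells, where Mt1 and Mt2 were also highest at 5 wk, both lists were highest at 4 wk instead. There the glucocorticoid list was at 290 CPM at 4 wk and 279 CPM at 5 wk, and the dissociation list at 14303 and 13676 CPM. The part of either list was not tested.

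**Figure D5:**
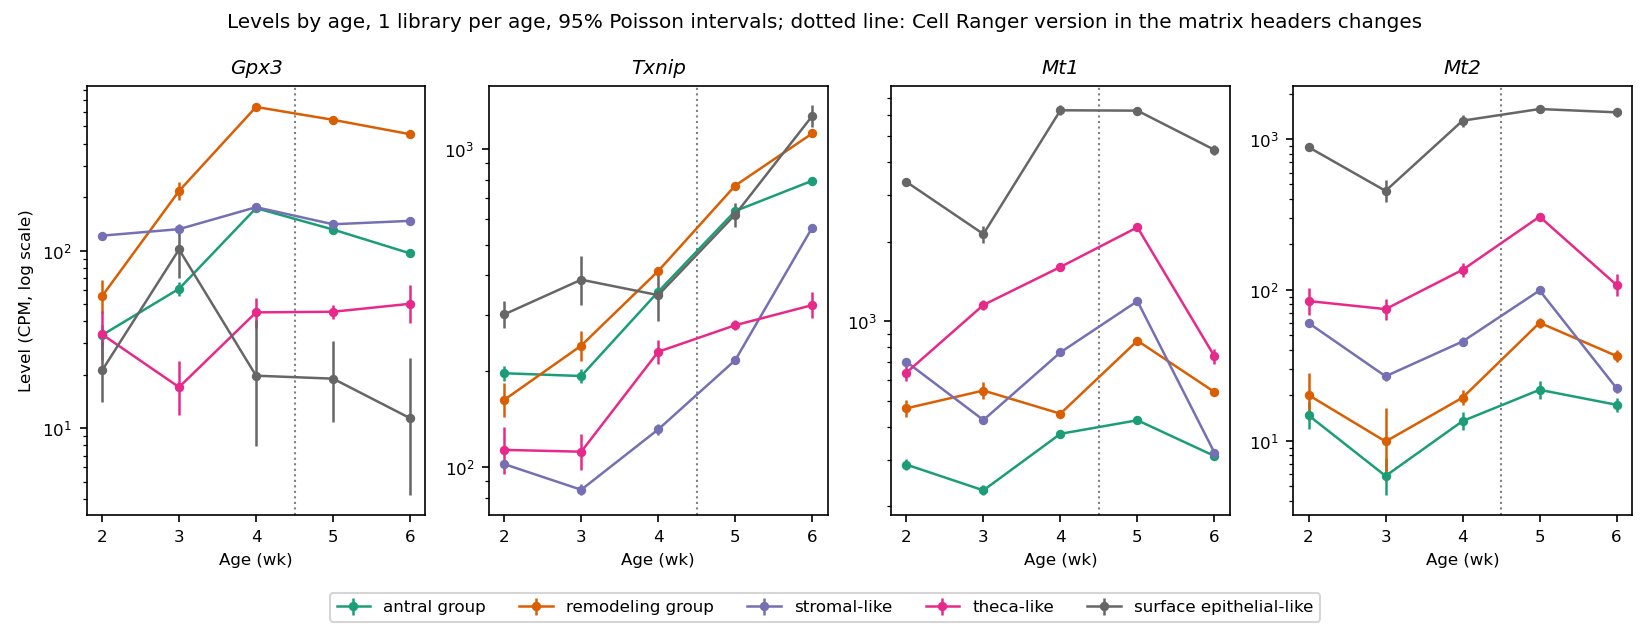
Level of Gpx3, Txnip, Mt1 and Mt2 in CPM (log axes) at 2, 3, 4, 5 and 6 wk in the antral and remodeling groups and in stromal-like, theca-like and surface epithelial-like cells, with exact 95% Poisson intervals as bars and a dotted line where the Cell Ranger version changes. Txnip is highest at 6 wk in stromal-like cells (566 CPM) and in the remodeling group (1119 CPM), and Gpx3 is highest at 4 wk in the antral and remodeling groups.

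For each member, the genes whose log2 levels were most alike over the same 76 sums were found among 6530 genes. Sod3 was most like genes of contractile and mural cells, Ppp1r14a (r = 0.85), Rbpms2 (r = 0.81) and Hspb2 (r = 0.81). Mt2 was most like Mt1 (r = 0.89), C2 (r = 0.85) and Star (r = 0.84), where Star encodes the carrier of cholesterol into mitochondria and C2 a complement component. For Mt1 they were Mt2 (r = 0.89), Star (r = 0.76) and C2 (r = 0.72), for Gpx3 Mmp11 (r = 0.68), Nupr1 (r = 0.64) and Arrdc3 (r = 0.63) and for Txnip Eif4a2 (r = 0.73), Pik3ip1 (r = 0.67) and Fam126b (r = 0.67).

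For Sod2 the most alike genes were Hsdl2 (r = 0.75), Eci1 (r = 0.73) and Uqcrfs1 (r = 0.72), of which Uqcrfs1 encodes a subunit of respiratory complex III and Eci1 an enzyme of mitochondrial fatty acid oxidation. For Gpx4 they were Mdh1 (r = 0.76) and Gapdh (r = 0.74), for Sod1 Nmt2 (r = 0.75), Clu (r = 0.69) and Tufm (r = 0.66), for Gpx1 Mvp (r = 0.77), Grb2 (r = 0.76) and Gabarap (r = 0.75) and for Cat Rnf114 (r = 0.63), Grb2 (r = 0.57) and Dusp5 (r = 0.55). These correlations are descriptions over sums that share libraries.

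A wider set of 62 genes of the same chemistry and its regulators was tested in the same fits. It holds peroxiredoxins, thioredoxin and glutathione enzymes, targets of the transcription factor NRF2, selenoprotein, zinc and peroxisome genes and sources of superoxide. Between primary and primordial groups, 4 higher and 19 lower of 54 tested were called beside 33.1% of all genes, with a median log2 fold of -0.15 against 0.04 for all genes. Srxn1, which repairs overoxidized peroxiredoxins, fell (log2 fold -2.03 ± 0.45 SE, adjusted p = 9.67e-04), and Ggt5, a gamma-glutamyltransferase that cleaves glutathione conjugates, fell (log2 fold -2.71 ± 0.45 SE, adjusted p = 4.05e-05). Both were scarce in the primary group, Srxn1 at 2.35 to 5.59 against 5.29 to 23.0 CPM and Ggt5 at 0.88 to 2.90 against 5.33 to 23.7 CPM. The largest rises were those of Arrdc4, a relative of Txnip (log2 fold 0.67 ± 0.23 SE, adjusted p = 0.0265), and Eefsec, the elongation factor for selenocysteine (log2 fold 0.59 ± 0.17 SE, adjusted p = 0.00748). These were low as well, with overlapping ranges. Arrdc4 was at 7.98 to 15.2 CPM in the primary against 4.74 to 8.82 CPM in the primordial group, and Eefsec at 15.0 to 24.4 against 11.1 to 16.3 CPM. Between secondary and primary groups there were 4 higher and 4 lower of 54, beside 10.9% of all genes. The peroxiredoxin gene Prdx4 (log2 fold 0.45 ± 0.11 SE, adjusted p = 0.00979) and Ccs, the copper chaperone of SOD1 (log2 fold 0.33 ± 0.08 SE, adjusted p = 0.00922), rose most. The zinc exporter gene Slc30a1 (log2 fold -0.71 ± 0.21 SE, adjusted p = 0.0274) and the heme oxygenase gene Hmox1 (log2 fold -0.63 ± 0.17 SE, adjusted p = 0.0157) fell most. Slc30a1 was low, at 4.99 to 7.27 CPM in the secondary and 5.97 to 12.8 CPM in the primary group, which overlapped.

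Between antral and secondary groups 15 higher and 5 lower of 54 were called, beside 30% of all genes. Gpx7, a glutathione peroxidase of the endoplasmic reticulum, was at 135 to 299 against 70.7 to 121 CPM (log2 fold 1.23 ± 0.17 SE, adjusted p = 7.00e-06). The selenoprotein gene Selenom rose (log2 fold 1.99 ± 0.26 SE, adjusted p = 3.84e-06), from 1.24 to 7.79 CPM in the secondary group to 10.9 to 29.0 CPM in the antral group. Nfe2l2, which encodes NRF2, fell (log2 fold -0.52 ± 0.10 SE, adjusted p = 3.92e-04), as did G6pdx, the gene of the NADPH-producing glucose-6-phosphate dehydrogenase (log2 fold -0.51 ± 0.14 SE, adjusted p = 0.00676). Between remodeling and antral groups 16 higher and 10 lower of 54 were called, beside 34.7% of all genes. Gpx7 and the cystine importer gene Slc7a11 fell (log2 fold -1.12 ± 0.17 SE, adjusted p = 9.59e-06, and log2 fold -1.07 ± 0.30 SE, adjusted p = 0.00654), and Ggt5 and Srxn1 rose (log2 fold 1.81 ± 0.39 SE, adjusted p = 6.73e-04, and log2 fold 1.5 ± 0.43 SE, adjusted p = 0.00772). The last 3 genes were scarce. Slc7a11 was at 0.71 to 1.82 CPM in the remodeling against 1.96 to 2.98 CPM in the antral group. Ggt5 was at 1.85 to 9.87 against 0.62 to 1.97 CPM and Srxn1 at 1.41 to 14.0 against 0.58 to 1.92 CPM.

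Between theca-like and stromal-like cells 25 higher and 16 lower of 56 were called, beside 51.3% of all genes. Prdx3, the mitochondrial peroxiredoxin gene, was at 80.0 to 301 against 24.3 to 65.1 CPM (log2 fold 1.75 ± 0.17 SE, adjusted p = 3.29e-07). The NADPH oxidase gene Nox4 was at 0 to 2.53 against 2.25 to 5.67 CPM and the xanthine dehydrogenase gene Xdh at 0 to 2.91 against 1.85 to 8.96 CPM, and both were called lower. Chac1, which degrades glutathione, was called higher at 0 to 0.84 against 0 to 0.22 CPM. For these 3 genes no fold is given because theca-like or stromal-like sums held none of their UMIs in at least 1 library.

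Between granulosa-like and stromal-like cells 14 higher and 22 lower of 56 were called, beside 69.7% of all genes. Gclc, the catalytic subunit gene of the enzyme that starts glutathione synthesis, was at 43.0 to 101 against 18.5 to 34.2 CPM (log2 fold 1.41 ± 0.24 SE, adjusted p = 5.67e-05), and Chac1 was called higher at 0.35 to 1.08 against 0 to 0.22 CPM. Selenom was at 8.94 to 19.3 against 153 to 214 CPM (log2 fold -3.90 ± 0.19 SE, adjusted p = 3.03e-11) and Ggt5 at 1.51 to 2.95 against 17.0 to 28.2 CPM (log2 fold -3.59 ± 0.15 SE, adjusted p = 4.22e-12), both lower in granulosa-like cells.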

How the data were processed

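UMI counts per gene and cell were deposited by the authors for 5 libraries made with 10x Genomics 3′ chemistry; the study's methods name Cell Ranger v3.1.0 and v6.0.1 and Seurat v4.1.0, the submitters' processing notes name Cell Ranger 3.1.0, Seurat 4.1.0 and build mm10, and the matrix headers name 3.1.0 in 3 libraries and 6.0.1 in 2. Cell Ranger counts reads that map to 1 gene, so reads shared with near copies are not counted, and levels are compared only within a gene. The number of mice per library is not given in the sources used here, so p-values measure only how constant a difference is over these libraries.

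All 48163 deposited cells were integrated and clustered in Seurat 5.3.0 (2000 variable genes, resolution 1), and granulosa-like and mesenchymal cells were clustered again. The members and the related genes were left out of the variable genes, where 11 of them would have stood. Pairs of libraries shared 18 to 35 cell barcodes. Scrublet called 162 to 555 doublets per library, which were kept in the main analysis and left out in an alternative. Clusters were named from marker lists. The members and lists were chosen with earlier results of these data known. For the granulosa stages 4 naming rules were tried. Limits in these rules were chosen on clusters already looked at, and the last rule was adopted after the levels of Gpx3 and Mt1 by cluster and the members' test results under the rule before it had been seen. It resolves ties by a correlation of at least 0.7 with the study's cluster means; 2 other namings are alternatives chosen after seeing the data. Some clusters in S phase that the study counts as secondary are named mitotic here, and a cluster named for red blood cells was not described because 1 library held none of its hemoglobin UMIs.

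UMIs were summed per library and group (sums under 20 cells left out) and tested with edgeR 4.0.16 (TMM, filterByExpr, quasi-likelihood test, R 4.3.3), with the library as a block because the sums of a library come from the same suspension; adjusted p-values are Benjamini-Hochberg over all genes. Groups were made from other genes of the same cells. The fit of the stages used 6 granulosa groups, and that of the classes theca-like, granulosa-like, smooth muscle-like and stromal-like cells. The test was tried on simulated counts. DESeq2 1.42.0, other normalizations, filters, cells, resolutions and omitted libraries were alternatives. Between ages, CPM with exact Poisson intervals were compared without a test. Likeness is Pearson's r of log2(CPM + 10) over sums, among genes of a mean of at least 20 CPM. All members are named, as are the 3 genes most alike to each, of which 1 is not reported here, and from the related lists the 2 largest called rises and falls per comparison. Shares of cells were taken after thinning each cell to 2000 UMIs. Promoters are from RefSeq on GRCm38.p6 and matched 9 of 10 members by symbol; Sod3 was not matched.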

Additional observations from a re-analysis of the deposited data

Results flagged for a closer look

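In 14 cases the difference between 2 groups of cells had one sign at some ages and the opposite sign at others, with exact counting intervals on either side of no difference. Each age has 1 library, so none of these differences between ages was tested, and values are log2 ratios within a library. Mt2 in the primary against the primordial group was 1.13 at 2 wk and -1.52 to -1.17 at 3, 4, 5 and 6 wk. Mt1 in the secondary against the primary group was -0.27 at 4 wk and 0.12 to 0.46 at 2, 5 and 6 wk, and Txnip in the same comparison was -0.14 at 2 wk and 0.16 to 0.23 at 3, 4, 5 and 6 wk. In the antral against the secondary group Sod2 was 0.13 at 2 wk and -0.40 to -0.24 at 4, 5 and 6 wk, and Mt1 was -0.39 at 3 wk and 0.16 to 0.43 at 2, 4 and 6 wk. In the remodeling against the antral group Gpx1 was -0.22 at 3 wk and 0.12 to 0.29 at 5 and 6 wk, and Txnip was -0.28 at 2 wk and 0.22 to 0.49 at 3, 4, 5 and 6 wk.

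In theca-like against stromal-like cells Sod3 was 0.24 at 5 wk and -2.14 to -0.42 at 2, 4 and 6 wk, Mt1 was -0.14 at 2 wk and 0.93 to 1.44 at 3, 4, 5 and 6 wk, Txnip was -0.81 at 6 wk and 0.37 to 0.81 at 3, 4 and 5 wk, and Cat was -0.60 at 6 wk and 0.62 at 5 wk. Theca-like sums at 2 and 6 wk rest on 63 and 56 cells. In granulosa-like against stromal-like cells Gpx1 was -0.26 at 2 wk and -0.19 at 3 wk and 0.16 to 0.34 at 4, 5 and 6 wk, Gpx3 was 0.52 at 5 wk and 0.48 at 4 wk and -2.66 to -0.10 at 2, 3 and 6 wk, and Mt1 was 0.10 at 6 wk and -1.66 to -0.69 at 2, 3, 4 and 5 wk. The remodeling group held 146, 166, 1408, 788 and 838 of the 3117, 3463, 5312, 2875 and 3871 granulosa-like cells at 2, 3, 4, 5 and 6 wk, and its part in the sign for Gpx3 was not tested.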

How the results depend on the processing

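Of 35 called differences of members between groups of cells, 20 stayed called under every alternative tried other than the fit without the replicate block. In that fit 12 were called. Comparisons with the secondary group had 13 alternatives, against 16 for the other comparisons of stages. The missing ones left no secondary group. Gpx3 between secondary and primary groups, and Gpx3 and Txnip between antral and secondary groups, are among the 20 but were not put to those. Over 505 values under alternatives, 502 kept their direction. The 3 that reversed were Mt1 between primary and primordial groups with the default variable genes (-0.0064), and Gpx1 (-0.0774) and Gpx4 (-0.37) between antral and secondary groups at a clustering resolution of 0.6; the cause was not tested. Of 144 counts of members under alternatives, 126 were within 1.5 times the reported count. The main fit paired sums of a library through the replicate block. Without it 1 member was called between primary and primordial groups, 0 between secondary and primary, 0 between antral and secondary, and 1 between remodeling and antral groups, against 6, 3, 6 and 6 with it. Of 12798 genes, 2120, 62, 1425 and 1799 were called without the block, against 4234, 1395, 3840 and 4437 with it. In the fit without the block 5 members were called between theca-like and stromal-like cells and 5 between granulosa-like and stromal-like cells, against 7 and 7. Of 14184 genes, 5538 and 7918 were called in that fit, against 7280 and 9883. At resolution 0.6 the counts were 7 between secondary and primary and 3 between antral and secondary groups, beside 6423 and 3608 of 13214 genes. Leaving out a library gave 1 to 3 members called between secondary and primary groups (1 without 3 wk, 1 without 4 wk, 1 without 5 wk, 1 without 6 wk) and 3 to 6 between antral and secondary groups (3 without 5 wk). Of all genes, 590, 619, 545 and 516 were called between secondary and primary groups without 3, 4, 5 and 6 wk. Between antral and secondary groups 2745 genes were called without 5 wk.

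Between ages, the secondary group had 6 of 9 members past a limit of 1.5, beside 50.9% of genes, in place of 3 past 2. The antral group had 3 of 9 in place of 5 with stages named by the highest marker score (chosen after seeing the data), beside 25.5% of genes. The remodeling group had 3 of 9 in place of 5 with cells of at least 1000 genes and under 10% mitochondrial UMIs, beside 34.6% of genes. Leaving out a library gave 3 to 5 members in the antral group (3 without 2 wk, beside 17.5% of genes). It gave 3 to 4 in the remodeling group (3 without 2 wk, beside 21.9%, and 3 without 4 wk, beside 25.4%) and 3 to 7 in theca-like cells (3 without 5 wk, beside 19.9%). The default variable genes, tied clusters left out and stages named by the highest marker score left no secondary group and so gave no value for it. Depth limits the scarce members most: sums of granulosa groups held 8 to 136 UMIs of Sod3, against 206 to 21028 of Gpx4.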
